A study of Homo sapiens with 2 samples.

Results

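Epithelial-to-mesenchymal transition (EMT) is a programme in which epithelial cells loosen their junctions and take on features of mesenchymal cells. It is driven by a small group of DNA-binding repressors and activators, the SNAIL, ZEB and TWIST families. The 10 genes described here are 5 of these transcription factors (SNAI1, SNAI2, ZEB1, ZEB2 and TWIST1) and 5 genes of the mesenchymal state (VIM, FN1, SPARC, S100A4 and TGM2). Membership was set by gene symbol, with earlier results of these data known, and they are 10 of the 18417 genes with a single-gene probe set. In total 11 probe sets measured them, since ZEB2 had more than 1.

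The cells were Huh-7, an established human hepatocellular carcinoma line with an epithelial, hepatocyte-like character. One culture had been transfected with a control called NC in the labels, and its counterpart with siRNA against DEPDC1, and both were collected 72 h later. Each group had 1 array of total RNA, labelled as a biological replicate, so the spread between replicates is unknown and no test could be run. The siRNA's sequence and what NC consists of are not given in the sources used here. The label of the siRNA array was checked on its target: DEPDC1 stood at 7.82 with NC and 5.15 with siRNA on the log2 scale, a difference of -2.67.

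SNAIL proteins (SNAI1, known as SNAIL, and SNAI2, known as SLUG) and ZEB proteins are zinc finger repressors that bind E-box sequences, among them those of the E-cadherin gene CDH1. TWIST1 is a basic helix-loop-helix factor that binds E-boxes as a dimer. ZEB1 and ZEB2 are in turn known targets of the microRNAs of the miR-200 family, which the ZEB proteins repress. In hepatocellular carcinoma, EMT has been linked to invasion and to loss of hepatocyte character.

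Among the mesenchymal members VIM and S100A4 stood higher in the siRNA array, by under 1.5-fold, and the transcription factors went both ways. Detection was called where at least one array reached 4.66, the median over all values of the table on the log2 scale, and 8 of the 10 members were detected. None of these 8 was at least 2-fold higher, against 1.94% of the 11352 detected genes, and 1 of them, SNAI2, was at least 2-fold lower, against 0.863% of detected genes. By sign alone, 6 of the 8 had a higher value in the siRNA array and 2 a lower one, while 49.9% of all detected genes were higher and 48.1% lower. The median difference, siRNA minus NC, was 0.14 over the 8 detected members and 0.00 over all detected genes. ZEB2 and SPARC lay under the threshold on both arrays, and with them the median over all 10 members was 0.22.

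Measurement noise was gauged from genes with several probe sets. In 392 genes that had 2 or more detected probe sets of unequal values, the differences (log2) spanned a median range of 0.12, with a 90th percentile of 0.44. The gauge holds no variation between cultures, and probe sets of a gene can have probes in common. Of the 8 detected members, 3 (SNAI2, VIM and S100A4) differed by more than 0.44 in either direction. Over all detected genes the 10th and 90th percentiles of the difference were -0.36 and 0.45, so such differences were not rare. The value of 0.44 is a range between probe sets and serves only as a rough scale for a single difference.

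**Figure D1:**
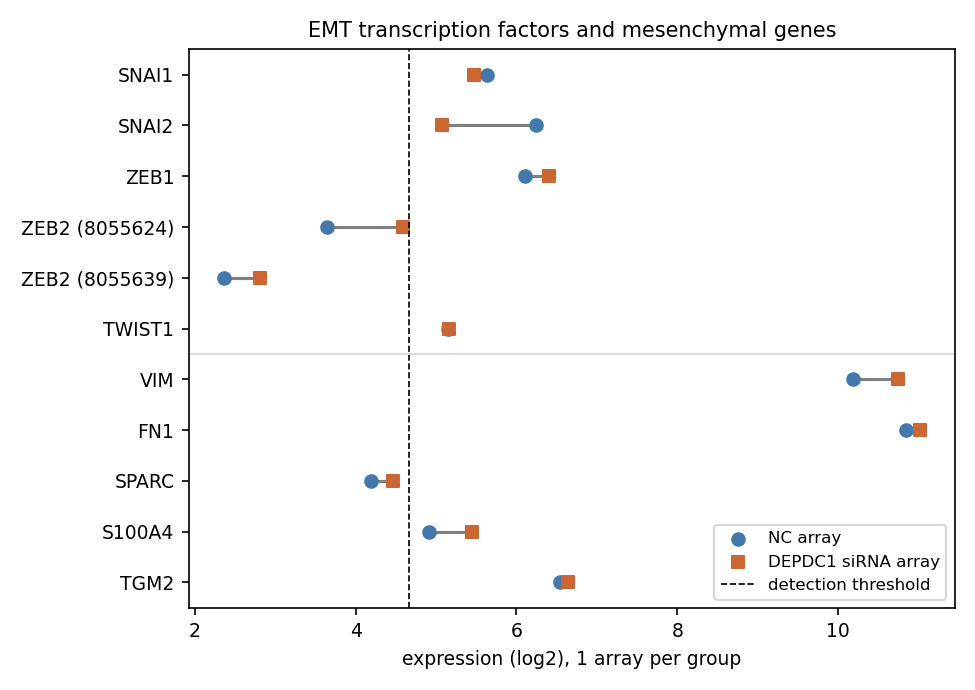
Log2 expression of every single-gene probe set of the 10 members in the NC array (circles) and the DEPDC1 siRNA array (squares), with 1 array per group; the dashed line is the detection threshold of 4.66 and the horizontal line separates transcription factors from mesenchymal genes. SNAI2 spans the widest gap and is lower in the siRNA array, while both probe sets of ZEB2 and that of SPARC lie left of the threshold; levels of different probe sets are not comparable.

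Among the transcription factors, SNAI2 had the largest difference. Its value was 6.24 with NC and 5.07 with siRNA, a difference of -1.17 or 2.25-fold lower. Only 60 detected genes, 0.529% of them, had a more negative difference. Both values lay above the threshold of 4.66. With a threshold of 5.18, the median of probe sets listed with 1 gene and chosen after seeing the data, the siRNA value lay under it, and SNAI2 was at least 2.08-fold lower. SNAI1, the other SNAIL factor, had 5.64 with NC and 5.47 with siRNA. Its difference of -0.17 had the same sign as that of SNAI2, but 25.5% of detected genes lay further down.

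The ZEB factors had the opposite sign. ZEB1 had 6.11 with NC and 6.41 with siRNA, a difference of 0.30. A more positive difference was seen in 18.0% of detected genes. ZEB2 was measured by probe sets 8055624 and 8055639, neither of which reached the threshold on either array. The first gave 3.65 with NC and 4.59 with siRNA, a difference of 0.94, and its siRNA value lay just under the threshold of 4.66. The second gave 2.36 and 2.80, a difference of 0.45. Both probe sets of ZEB2 were thus higher in the siRNA array, but no fold is given for values under the threshold. TWIST1 had 5.15 and 5.16, a difference of 0.02, close to the middle of all detected genes. With the threshold of 5.18 both of its values lay under it.

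The miR-200 family is shown because ZEB1 and ZEB2 are known targets of it. Its seeds, the bases through which a microRNA pairs with its targets, divide the family into groups. The mature sequences below are from RefSeq (GRCh38.p14), written 5′ to 3′, with the seed, bases 2 to 8, in capitals. The first 3 share the seed AAUACUG and the last 2 share AACACUG.
hsa-miR-200b-3p: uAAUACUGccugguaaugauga
hsa-miR-200c-3p: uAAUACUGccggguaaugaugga
hsa-miR-429: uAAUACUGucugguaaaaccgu
hsa-miR-200a-3p: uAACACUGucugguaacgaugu
hsa-miR-141-3p: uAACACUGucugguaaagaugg

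The array has probe sets named for the genes of these 5 microRNAs, and they do not measure the mature forms separately. MIR200B was the 1 detected gene among them, with 5.11 with NC and 5.36 with siRNA, a difference of 0.25. MIR200A, MIR200C, MIR141 and MIR429 lay under the threshold on both arrays, with differences of 0.00, -0.07, 0.19 and 0.04. The probe set of MIR200B thus had the same sign as those of ZEB1 and ZEB2.

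Among the mesenchymal genes, VIM and S100A4 differed most. VIM encodes vimentin, the intermediate filament protein of mesenchymal cells, and had 10.18 with NC and 10.75 with siRNA. The difference of 0.57 corresponds to 1.48-fold higher, and 6.49% of detected genes had a more positive one. S100A4, a calcium-binding protein also called fibroblast-specific protein, had 4.91 with NC and 5.45 with siRNA. It was 1.45-fold higher, a difference of 0.54, and 7.20% of detected genes lay above it. With the threshold of 5.18 the NC value of S100A4 lay under it, so the fold of 1.45 rests on the threshold of 4.66. Both genes thus fell just short of a 1.5-fold threshold, which 6.03% of detected genes reached in this direction and 3.74% in the other.

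The sequence upstream of the start site is shown for VIM and S100A4 because these were the detected members with the largest positive differences. The stretches are the 250 bases before the RefSeq start site in GRCh38.p14, 5′ to 3′ on the gene's strand, at chr10:17227991-17228240 (plus strand) for VIM and chr1:153545807-153546056 (minus strand) for S100A4. Capitals mark a GC box (GGGCGG) in VIM, and in S100A4 an E-box (CACCTG) followed by a TATA sequence (TATAAA).
VIM: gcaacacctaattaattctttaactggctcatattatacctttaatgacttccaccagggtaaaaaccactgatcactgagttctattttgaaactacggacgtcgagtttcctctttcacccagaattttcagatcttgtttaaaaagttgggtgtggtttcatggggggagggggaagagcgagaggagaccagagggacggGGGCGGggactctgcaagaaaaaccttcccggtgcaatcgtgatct
S100A4: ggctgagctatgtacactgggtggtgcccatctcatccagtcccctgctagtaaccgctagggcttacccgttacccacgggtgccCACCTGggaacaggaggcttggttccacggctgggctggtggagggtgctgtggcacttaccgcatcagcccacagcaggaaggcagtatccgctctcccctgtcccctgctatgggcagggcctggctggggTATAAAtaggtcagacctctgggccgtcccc

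The motifs were searched on both strands, as CACCTG or CAGGTG for the E-box, GGGCGG or CCGCCC for the GC box and TATAAA or TTTATA for the TATA sequence. The E-box of S100A4 starts 164 bases and its TATA sequence 31 bases before the start site, and the GC box of VIM starts 46 bases before it. Of 35116 such stretches in the RefSeq table, 17.5% hold the E-box, 42.6% the GC box and 10.7% the TATA sequence. The table holds promoters of 6 of the 10 members. The E-box letters were also found in 2 of the 7 promoters of ZEB1, and were not found in the windows of ZEB2, VIM, FN1 and SPARC. A match of letters describes the sequence and shows no binding.

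FN1 and TGM2 differed little. FN1, which encodes the matrix glycoprotein fibronectin, had 10.84 with NC and 11.02 with siRNA, a difference of 0.18. TGM2, a transglutaminase that crosslinks matrix proteins, had 6.54 and 6.64, a difference of 0.11. More positive differences were seen in 28.3% of detected genes for FN1 and in 36.1% for TGM2. SPARC, a matricellular glycoprotein that binds collagen, gave 4.20 and 4.47, both under the threshold, and its difference of 0.27 is given without a fold. All 5 mesenchymal members therefore had a higher value in the siRNA array, with a median difference of 0.27, or 0.36 over the 4 detected ones. FN1 and TGM2 lay within the gauge of 0.44, and with the threshold at the 75th percentile of all probe sets, which left S100A4 out, the median was 0.18. The 4 detected transcription factors had a median of -0.08, with 2 higher and 2 lower. Over all 5, ZEB2 included, the median had the other sign, at 0.02, with 3 higher and 2 lower.

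**Figure D2:**
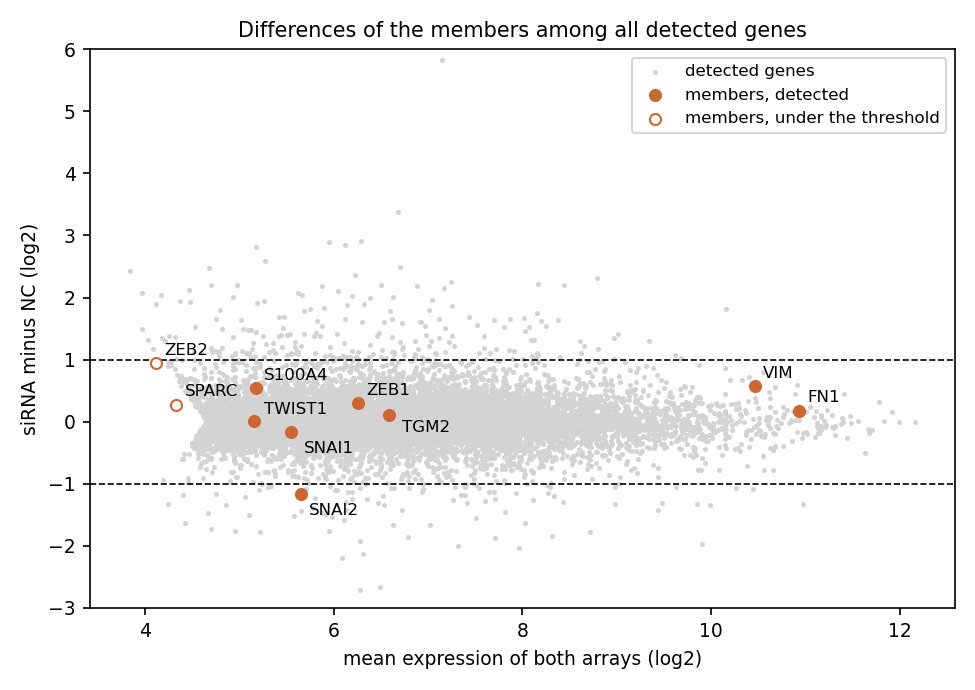
Difference between the arrays (siRNA minus NC, log2) against the mean log2 expression of both arrays for 11352 detected genes (grey), the 8 detected members (filled) and the 2 members under the threshold (open); dashed lines mark 2-fold. SNAI2 is the 1 member beyond a dashed line, at -1.17, and VIM at 0.57 and S100A4 at 0.54 lie in the upper part of the grey cloud.

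Relatives of the members were read beside them. Of 10 other EMT transcription factors with a single-gene probe set, 6 were detected, 3 higher and 3 lower, none by 2-fold, with a median of -0.02. TCF3, which encodes the E proteins that pair with TWIST1, had 6.28 with NC and 6.70 with siRNA, a difference of 0.42. PRRX1, a homeobox factor of mesenchyme, differed by 0.40 (6.11 against 6.52). TCF4, another E protein, and GSC, the homeobox factor goosecoid, differed by -0.25 and -0.18. SNAI3 and TWIST2, the remaining SNAIL and TWIST genes, lay under the threshold on both arrays.

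The other genes of the S100 family went both ways. Of 18 other S100 genes, 8 were detected, 5 higher and 3 lower, none by 2-fold, with a median of 0.38. S100A11 differed by 0.86 (8.80 in the NC array against 9.66), S100P by 0.72 and S100A6 by 0.56. S100A10, the partner of annexin A2, was lower, with 10.83 against 10.28, a difference of -0.55. Over all 18 genes without the detection filter, the median was 0.0033. Of the 14 on the same chromosome as S100A4 in RefSeq, 7 were detected, 4 higher and 3 lower, with a median of 0.28.

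Relatives of the other mesenchymal members also included larger differences than the members themselves. FSTL1, a secreted glycoprotein of the SPARC family, had 6.75 with NC and 8.30 with siRNA, a difference of 1.56. It was the 1 gene at least 2-fold higher among 3 detected of 7 SPARC relatives, against 1.94% of all detected genes. SPOCK2, a matrix proteoglycan of that family, differed by 0.63 and SMOC1 by -0.01. Beside vimentin, NES (nestin, an intermediate filament protein of progenitor cells) differed by 0.68, from 5.99 to 6.67. SYNM, DES and GFAP differed by 0.17, 0.11 and -0.06. None of the 9 other genes of the transglutaminase family was detected, so TGM2 was the 1 detected gene of that family.

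ITGAV, the alpha chain of fibronectin- and vitronectin-binding integrins, had 9.09 with NC and 10.16 with siRNA. Its difference of 1.07 was the 1 at or above 2-fold among 3 detected fibronectin receptor genes, against 1.94% of all detected genes. ITGB1, a beta chain shared by many integrins, differed by 0.29. ITGA5, the alpha chain of the classical fibronectin receptor, differed by -0.36.

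Other mesenchymal and matrix genes were compared with the 10 members. Of 20 with a single-gene probe set, 11 were detected, 8 higher and 3 lower, with a median of 0.19. At least 2-fold higher were 3, against 1.94% of all detected genes, and none was at least 2-fold lower, against 0.863%. LUM, the proteoglycan lumican, differed by 2.31, FBN1, the microfibril protein fibrillin, by 2.19 and COL1A2, a chain of type I collagen, by 1.07. COL1A1, the other chain of type I collagen, differed by 0.06. The collagen genes COL3A1, COL5A1 and COL5A2 differed by -0.04, -0.07 and 0.23. CDH2, which encodes N-cadherin, had 7.75 with NC and 8.40 with siRNA, a difference of 0.65. In contrast, several defining mesenchymal genes lay under the threshold on both arrays: ACTA2, TAGLN, THY1, POSTN, CD44, MMP2, TNC, CDH11 and DCN. The differences of the members thus stood beside some matrix genes with larger ones, others that differed little and a group that was not detected.

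Epithelial genes, the targets of the EMT repressors, were not lower as a list. Of 18 junction and keratin genes with a single-gene probe set, 16 were detected, 12 higher and 4 lower, none by 2-fold, with a median of 0.10. CDH1, which encodes E-cadherin, had 8.12 with NC and 8.28 with siRNA, a difference of 0.16. The keratin genes KRT18, KRT19 and KRT8 differed by 0.71, 0.52 and 0.45, and JUP, the junction protein plakoglobin, by 0.44. KRT18 and KRT8 have many near-identical pseudogenes whose signal the probe sets may share. CDH1, CDH2, VIM and the keratins all had a higher value in the siRNA array.

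Regulators of the epithelial state that were detected went both ways. Of 14 such genes with a single-gene probe set, 6 were detected, 3 higher and 3 lower, with a median of 0.06. FOXA1, a pioneer factor of liver and other epithelia, had 7.06 with NC and 6.59 with siRNA, a difference of -0.48. ESRP2, a splicing factor of epithelial cells, differed by 0.21 and GRHL1, a grainyhead factor, by -0.21. The remaining grainyhead genes GRHL2 and GRHL3 and the OVOL genes OVOL1 and OVOL2 lay under the threshold.

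The TGF-beta pathway is a known inducer of SNAI1, SNAI2 and ZEB genes. Its 13 detected genes went both ways, 4 higher and 9 lower, with a median of -0.24. At least 2-fold higher, as were 1.94% of all detected genes, were TGFB2 and LTBP1. TGFB2, a TGF-beta ligand, had 7.56 with NC and 9.19 with siRNA (difference 1.63). LTBP1, which holds latent TGF-beta in the matrix, had 5.94 and 7.09 (difference 1.15). TGFB1 differed by 0.70, and TGFB3 lay under the threshold. The receptor genes TGFBR1, TGFBR2 and TGFBR3 differed by -0.24, 0.50 and -0.44. Of the signal transducers, SMAD2 differed by -0.85, SMAD4 by -0.37 and SMAD3 by -0.33, the last pair within the gauge of 0.44. The inhibitors SMAD6 and SMAD7 differed by -0.59 and -0.55, and the corepressors SKI and SKIL by -0.14 and -0.12.

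Genes that act with SNAIL proteins or control their turnover had a median of 0.01 over 14 detected genes, 8 higher and 6 lower, none by 2-fold. RCOR1, a corepressor scaffold that SNAIL uses with the demethylase KDM1A, differed by -0.68 (7.33 in the NC array against 6.65). GSK3B, the kinase that marks SNAIL for degradation, differed by 0.62 (7.52 against 8.14). CTBP2, a corepressor of ZEB proteins, differed by 0.57 in its brighter probe set and by -0.12 in the other. FBXL14, a ubiquitin ligase subunit for SNAIL factors, differed by -0.48, and KDM1A itself by 0.05. RNA levels say nothing of the amount or modification of these proteins.

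**Figure D3:**
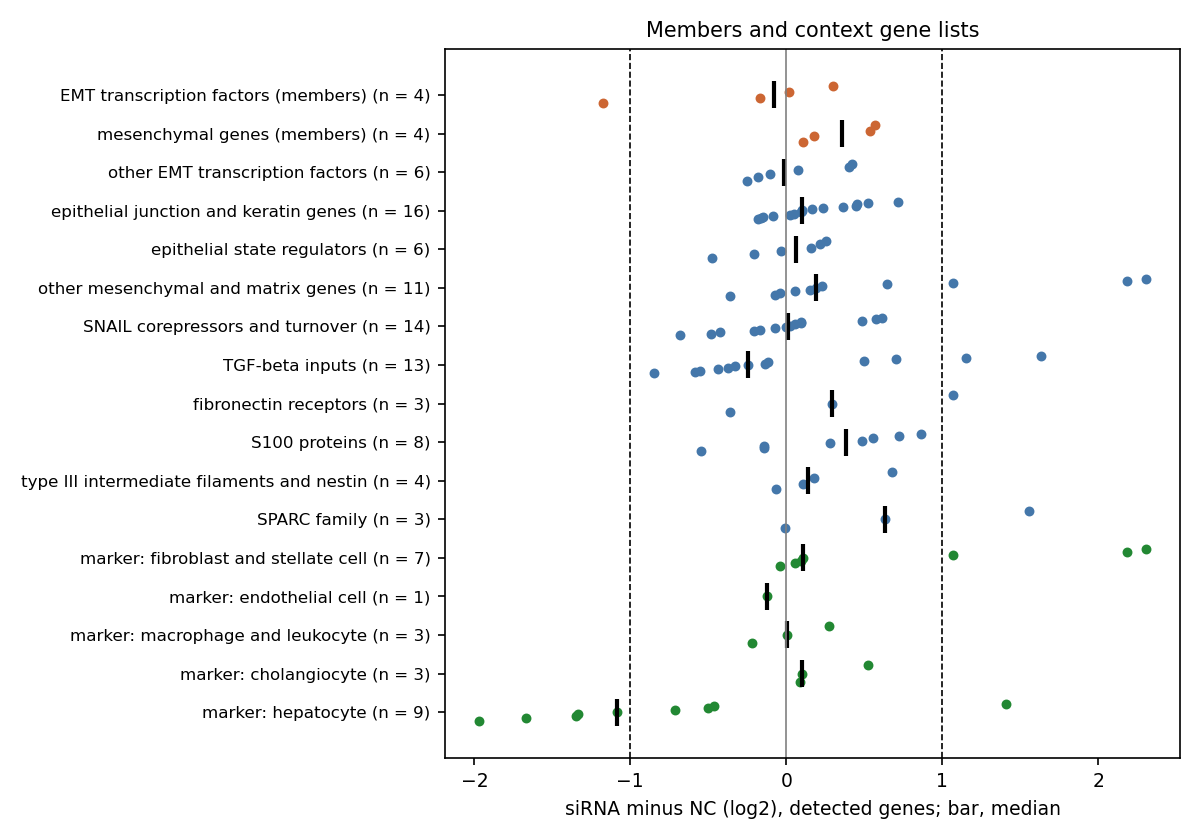
Differences between the arrays (siRNA minus NC, log2) of detected genes in the member lists (orange), context lists (blue) and cell type marker lists (green), each point a gene and each black bar a list median; dashed lines mark 2-fold. The mesenchymal members all lie right of 0 with a median of 0.36, the transcription factors spread from -1.17 to 0.30, and the hepatocyte markers lie mostly left of 0 with a median of -1.09.

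Markers were read beside these values, since vimentin, SPARC and several matrix genes are also genes of fibroblasts and stellate cells. Of 14 fibroblast and stellate cell markers, 7 were detected, 6 of them higher, with a median of 0.11. At least 2-fold higher were 3 (LUM, FBN1 and COL1A2), against 1.94% of all detected genes. Summed on the linear scale and given as log2, the 14 stood at 9.15 with NC and 10.66 with siRNA. Probe sets differ in how strongly they respond, so bright genes carry such a sum: without LUM and FBN1 it was 8.30 and 8.54. The same sum over the hepatocyte markers was 13.54 with NC and 12.80 with siRNA. The markers PDGFRB, DCN, THY1, ACTA2, RGS5, LRAT and POSTN lay under the threshold on both arrays. Endothelial markers had 1 of 8 genes detected (CLEC4G, -0.12) and leukocyte markers 3 of 9 (CD14 at 0.27, NKG7 at -0.22 and MARCO at 0.0049), while PTPRC, the pan-leukocyte gene CD45, lay under the threshold. Of 6 cholangiocyte markers 3 were detected (KRT19, EPCAM at 0.10 and SOX9 at 0.09), and KRT7 was not. The part of other cell types in the differences of the members was not tested. In bulk RNA, fewer cells of a type and less RNA per cell cannot be told apart.

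All 9 hepatocyte markers with a single-gene probe set were detected, while 11352 of all 18417 genes were. In the siRNA array 8 of the 9 were lower, with a median of -1.09. Of the 8 above the threshold on both arrays, 4 were at least 2-fold lower and 1 at least 2-fold higher. Over all detected genes these shares were 0.863% and 1.94%. The remaining marker, AHSG, named after its value was seen, was at least 1.82-fold lower. AFP (alpha-fetoprotein) differed by -1.97, SERPINA1 (alpha-1-antitrypsin) by -1.67, APOB (apolipoprotein B) by -1.35 and TTR (transthyretin) by 1.41. These differences were measured in the same pair of arrays as the lower SNAI2 and the higher VIM and S100A4.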

How the data were processed

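Total RNA of 2 cultures was measured on Affymetrix gene arrays. The authors deposited 33297 probe set values per array, with no unit in the labels. The deposited values lay between 1.39 and 12.7 and were taken as log2 expression. The sorted columns differed by at most 0.0997, so the arrays were taken as already normalized and used as deposited. Affymetrix Expression Console and Transcriptome Analysis Console 3.0 are named, per the submitters' processing notes; the method, the build and any filter are not given in the sources used here. Some values were equal on both arrays (225 of 11352 detected genes). Scanner intensities were not analysed here, so signal over background is unknown and the detection threshold is a convention; precision is limited by the number of arrays.

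In GEO's platform annotation 19460 probe sets had 1 gene, 1754 had several and 12083 were not listed with any. Current symbols came from RefSeq by Entrez identifier (GRCh38.p14), which matched 19429 of the 19460. For genes with several probe sets the one with the highest mean was used, and the gene's other probe sets are given for ZEB2 and CTBP2. Differences are siRNA minus NC, with no test, computed with pandas 2.3.3 and numpy 2.4.6, and the counting was tested on simulated data. The members and gene lists were chosen with earlier results of these data known. Named were the members, DEPDC1, CDH1, CDH2 and up to 4 detected genes of each list with the largest absolute difference. Other genes are named as list members under the threshold, or were chosen after their values were seen (SMAD3, SMAD4, SMAD6, SMAD7, SKI, SKIL, the TGFBR genes, KDM1A and the miR-200 genes). COL1A1, COL3A1, COL5A1, COL5A2, STAM, KIF5B, QTMAN and ACVR2A were also chosen after their values were seen. HNF4A, which the rule also names, had no single-gene probe set in the annotation used. The alternatives covered scaling, the detection threshold, the choice of probe set, the fold and the treatment of values under the threshold.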

Additional observations from a re-analysis of the deposited data

How the results depend on the processing

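Of the 8 alternatives, 4 (both scalings, the mean over probe sets and raising low values) can change a gene's difference. None of the 40 member differences under them had another sign, but most could hardly have had one. Centring shifts all genes by the same small amount, and raising low values can only bring a difference to 0. The mean over probe sets affects only ZEB2, whose probe sets were both higher. The signs therefore say little about how firm the directions are. The exceptions in size were ZEB2, at 0.69 as the mean of its probe sets, and ZEB2 and SPARC, which both came to 0 when lower values were set to the threshold. The one member at least 2-fold lower, SNAI2, was left out with the threshold at the 75th percentile of all probe sets, which kept 3 members, so that 0 were counted, and 137 genes were at least 2-fold higher in place of 220. At 1.5-fold, 685 genes were higher and 424 lower, and the members' counts were the same as at 2-fold. Of 116 list medians recomputed under the alternatives other than the fold, 99 moved by less than 0.12, the gauge from probe sets of the same gene. At the 75th percentile, with fewer genes in each list, the median of the other EMT transcription factors reversed, to 0.40, and those of the mesenchymal members (0.18), other mesenchymal genes (0.65), S100 genes (0.64), intermediate filament genes (0.43), SPARC relatives (1.56), fibroblast markers (2.19) and leukocyte markers (0.27) moved. Without the filter, fibronectin receptors came to 0.039, S100 genes to 0.0033 and SPARC relatives to 0.29. With a threshold from probe sets listed with 1 gene, chosen after seeing the data, the medians were 0.44 for other mesenchymal genes, 0.52 for S100 genes, 1.10 for SPARC relatives, 0.59 for fibroblast markers and 0.14 for leukocyte markers. With lower values set to the threshold, hepatocyte markers stood at -0.87. No paired analysis was possible because each group had 1 array, and no array could be left out for the same reason.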

Other observations

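The genes next to S100A4 in the RefSeq order were read as a check on its region, a choice made once its value was known, as for SNAI2. S100A6, 2 places away among genes with a probe set, differed by 0.56 and was the 1 detected gene of the nearest 4. S100A5, S100A3 and S100A2 lay under the threshold, with differences of 0.06, 0.33 and -0.07. Near SNAI2, UBE2V2, a ubiquitin-conjugating enzyme variant 2 places away, had 8.55 with NC and 7.88 with siRNA, a difference of -0.67. The other 3 of the nearest 4 genes of SNAI2 lay under the threshold. Near the remaining members the detected genes went both ways. STAM near VIM differed by 0.04. KIF5B near ZEB1 differed by -0.42, a sign opposite to that of ZEB1. QTMAN near ZEB2 differed by 0.38, the sign of ZEB2, but its NC value of 4.51 lay under the threshold. ACVR2A, also near ZEB2, had 6.97 with NC and 6.54 with siRNA, a difference of -0.43 with the opposite sign.

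Some genes of the lists were measured only by probe sets that name several genes, whose signal cannot be assigned. The probe set of OCLN (occludin, a tight junction protein) and OCLNP1 had 9.66 with NC and 9.37 with siRNA, a difference of -0.29. The probe set of HMGA2 (an EMT-linked chromatin protein) and ELAC2 differed by -0.13, and that of SDC4 (syndecan 4, a fibronectin co-receptor) and ROS1 by -0.29. A further probe set that names KRT18 and MIR622 differed by 0.71, as did the brightest single-gene probe set of KRT18.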
